A study of Mus musculus with 79 samples.

Results

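A set of 5 genes that were selected for large ICV leptin changes in bone marrow fat were followed across tissues, genotypes and insulin treatment: Slc22a14, Dlk2, Prr32, Glb1l2 and Crtac1. They are 5 of 74693 features listed and 5 of the 14873 genes that passed a filter of a mean of at least 0.4 TPM (transcripts scaled to gene length and to the same total in every library) over the 79 libraries. They were chosen by their leptin change in caudal vertebrae (CV) of wild-type (WT) mice of both sexes, and by a higher mean TPM in CV and in inguinal white adipose tissue (iWAT) than in lumbar vertebrae (LV) of WT females given PBS. The leptin change in WT CV and the tissue difference in WT females are therefore described here with no test. The tests of leptin in iWAT and LV use PBS libraries that had a part in the choice, which is said where they are given. Slc22a14 and Prr32 passed the filter only through groups where they were high, and these groups are named with the first test.

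The study asked how stable adipocytes, such as those that fill the marrow of the tail, give up their lipid, and it infused leptin into the brain to force that loss. RNA came from 51 mice aged 4 to 5 months by the labels, with CV from all of them, LV from 18 females and iWAT from 10 females. The paper gives a wider age range for the sequenced mice, and an older one for the males of its insulin pellet experiment. Whether the insulin-treated mice were older than the others is not settled by these sources. Each mouse received ICV leptin at 100 ng per h or ICV PBS for 9 days and was pair-fed. The study left out animals in which the pump or surgery failed and leptin had no effect, so the leptin groups are mice that responded. Mice were WT (BMAd-Pnpla2+/+) or BMAd-Pnpla2-/- littermates (cKO), which lack ATGL, the first lipase of triglyceride breakdown, only in bone marrow adipocytes and were kept on a mixed SJL and C57BL6 background.

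The CV groups without insulin held 5 female WT PBS, 5 female WT leptin, 5 male WT PBS, 8 male WT leptin, 4 female cKO PBS, 4 female cKO leptin, 5 male cKO PBS and 4 male cKO leptin libraries. A further 5 PBS and 6 leptin male WT mice carried a subcutaneous insulin pellet from the day of surgery. iWAT was taken from the same 5 PBS and 5 leptin WT females whose CV was sequenced, and LV from 5 PBS and 5 leptin WT females and from 4 PBS and 4 leptin cKO females. All insulin-treated mice have numbers in the 300s or 400s and no other mouse does, so insulin and mouse series cannot be told apart.

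Each CV library held between 16100377 and 19364106 counts, each iWAT library between 17638318 and 19100698 counts, and each LV library between 28717516 and 29757254 counts. The targeted gene Pnpla2 was at 131 to 266 TPM in female cKO CV and 209 to 405 TPM in female WT CV, so the ranges overlapped. The deletion is confined to marrow adipocytes, and other cells of the vertebra still carry the gene. The adipocyte markers Adipoq, Plin1, Cidec and Fabp4 summed to 3079 to 8552 TPM in CV, 12618 to 53873 TPM in iWAT and 199 to 449 TPM in LV. CV also held muscle, with 8 skeletal muscle genes summing to 16104 to 61578 TPM, and LV was dominated by blood-forming cells, with 4 erythroid genes at 116108 to 234594 TPM. In bulk tissue of this kind, fewer cells of a type and less RNA per cell cannot be told apart.

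The 5 genes encode proteins of unrelated kinds. Slc22a14 belongs to a family of membrane carriers for organic ions and is best known as a carrier of sperm cells. Dlk2 is a membrane protein with EGF-like repeats and the closest relative of Dlk1, which holds back adipocyte formation and acts on the Notch pathway. Glb1l2 resembles the lysosomal beta-galactosidase Glb1, Crtac1 is a secreted matrix protein first found in cartilage that also blocks the Nogo receptor on neurons, and Prr32 is a proline-rich protein whose function is not described here. White adipocytes break down triglyceride in sequence through ATGL, hormone-sensitive lipase and monoglyceride lipase, and leptin acting on the brain is a known trigger of that breakdown.

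In GRCm38.p6, the build that the authors aligned to, Slc22a14 (gene ID 382113) lies at chr9:119169453-119190430 on the minus strand and Prr32 (68800) at chrX:45090904-45092791 on the plus strand, neither overlapped by another annotated gene. Dlk2 (106565) lies at chr17:46297256-46303271 on the plus strand and shares ground with Abcc10 on the other strand. Glb1l2 (244757) spans chr9:26763044-26806473 on the minus strand and overlaps B3gat1 on the other strand, and Crtac1 (72832) spans chr19:42283035-42432966 on the minus strand. Crtac1 is overlapped by a pseudogene on the same strand and by an antisense RNA on the other strand. Whether reads were counted by strand is not stated in the sources used here, so reads of opposite genes cannot be told apart. Abcc10 had a log2 fold change with leptin of 0.10 ± 0.09 (SE) in female WT CV and -0.04 ± 0.12 in cKO CV, against values of 1.69 and 1.11 for Dlk2. No values are given for B3gat1 or for the genes that overlap Crtac1, and the part of overlapping genes was not tested.

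RefSeq promoter windows of 300 bases, most of them upstream of the start, were found for 4 of the 5 genes, and Glb1l2 has no entry. They are shown because they allow the genes that rose and those that fell to be compared at their starts. Capitals mark matches, on either strand, to 7 short motifs, those of FOXO, STAT, E-box, nuclear receptor, C/EBP and NF-Y factors and the TATA box, whose letters are spelled out with their counts. Each window is given 5′ to 3′ along its gene, with GRCm38.p6 positions of chr9:119190346-119190645 (minus strand) for Slc22a14, chr17:46297233-46297532 (plus) for the first Dlk2 start, chrX:45090654-45090953 (plus) for Prr32 and chr19:42431739-42432038 (minus) for the first Crtac1 start.
Slc22a14: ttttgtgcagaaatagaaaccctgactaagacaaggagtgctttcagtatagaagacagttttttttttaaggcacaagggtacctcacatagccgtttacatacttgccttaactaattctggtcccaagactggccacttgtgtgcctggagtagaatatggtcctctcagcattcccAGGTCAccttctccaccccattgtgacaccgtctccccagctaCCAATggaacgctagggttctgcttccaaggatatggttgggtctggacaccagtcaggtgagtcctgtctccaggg
Dlk2: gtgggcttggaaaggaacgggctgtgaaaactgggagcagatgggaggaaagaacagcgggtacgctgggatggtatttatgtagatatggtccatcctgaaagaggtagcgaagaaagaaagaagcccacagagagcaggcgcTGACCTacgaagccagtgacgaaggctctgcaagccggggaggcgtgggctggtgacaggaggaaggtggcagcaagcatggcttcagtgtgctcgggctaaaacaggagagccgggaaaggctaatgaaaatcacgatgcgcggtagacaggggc
Prr32: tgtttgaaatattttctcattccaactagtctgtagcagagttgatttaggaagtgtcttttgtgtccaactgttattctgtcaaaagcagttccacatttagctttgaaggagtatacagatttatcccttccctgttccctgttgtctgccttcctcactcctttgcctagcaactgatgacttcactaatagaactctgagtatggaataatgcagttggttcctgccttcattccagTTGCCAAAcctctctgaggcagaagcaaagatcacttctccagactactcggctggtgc
Crtac1: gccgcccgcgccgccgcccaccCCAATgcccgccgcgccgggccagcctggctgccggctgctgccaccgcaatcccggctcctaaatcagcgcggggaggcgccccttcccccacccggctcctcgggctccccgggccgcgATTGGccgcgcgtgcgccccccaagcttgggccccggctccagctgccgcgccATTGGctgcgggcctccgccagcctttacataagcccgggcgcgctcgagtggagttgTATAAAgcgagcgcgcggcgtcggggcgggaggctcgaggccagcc

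No motif was shared by all 4 windows. AGGTCA, the nuclear receptor motif, was found once in the windows of Slc22a14, 70 bases before the start, and of Dlk2, 106 bases before it, and this motif is in 16.3% of the 32851 mouse windows. The Prr32 window held 1 match to the C/EBP motif TTGCNNAA, 9 bases before the start, which is in 10.8% of windows. The Crtac1 window held 3 matches to the NF-Y motif CCAAT, and that of Slc22a14 held 1, with CCAAT in 37.4% of all windows. The TATA box TATAAA, found in 13.6% of windows, occurred once in the Crtac1 window, 4 bases after the listed start and not before it. The FOXO motif GTAAACA, in 3.65% of all windows, was in none of the 4. The STAT motif TTCNNNGAA, in 8.30% of windows, was also in none. The E-box CACGTG, in 7.15% of windows, was likewise absent. GC content was 42.7% for Prr32, 48.3% for Slc22a14, 56.0% for the first Dlk2 start and 76.7% for the first Crtac1 start. The median over all windows was 52.7%. The second listed starts of Dlk2 and Crtac1, with a GC content of 78.3% and 73.0%, held no match to any of the 7 motifs.

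In WT CV, the contrast that chose the genes, Slc22a14 and Dlk2 were higher and Prr32, Glb1l2 and Crtac1 lower with ICV leptin in both sexes. Slc22a14 was at 0.17, 0.17, 0.35, 0.14 and 0.55 TPM in female PBS mice and at 1.03, 1.97, 3.70, 2.94 and 1.25 TPM in female leptin mice. These levels rest on 3 to 12 counts per PBS library and 24 to 78 counts per leptin library. Male values were 0.11 to 0.47 TPM (median 0.26, n = 5) with PBS and 0.89 to 2.33 TPM (median 1.36, n = 8) with leptin. The PBS level was at the edge of detection and the leptin level low but clear, with log2 fold changes of 2.92 ± 0.45 (SE) in females and 2.45 ± 0.32 in males.

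Dlk2 was at 0.67, 0.66, 0.55, 1.31 and 1.08 TPM in female WT PBS mice and at 4.02, 1.57, 2.49, 3.67 and 2.06 TPM with leptin. In males it was at 0.40, 0.19, 0.30, 0.70 and 0.44 TPM with PBS, and between 0.78 and 1.94 TPM with leptin. The groups stood apart in each sex, narrowly in males, with log2 fold changes of 1.69 ± 0.28 (SE) and 1.55 ± 0.32.

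Prr32 was at 2.31, 2.90, 2.03, 2.64 and 2.84 TPM in female WT PBS mice and at 0, 0.45, 0.11, 0.30 and 0.10 TPM with leptin, where no library held more than 5 counts. In males the PBS values were 0.74, 1.32, 2.06, 0.60 and 1.73 TPM and the 8 leptin values lay between 0 and 0.20 TPM. With leptin most mice of both sexes lay at or below 3 counts, the most that a library listed at 0 allows. The fitted log2 fold changes were -3.63 ± 0.46 (SE) in females and -3.44 ± 0.43 in males.

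Glb1l2, the most abundant of the 5, was at 25.7, 30.6, 25.8, 17.9 and 23.8 TPM in female WT PBS mice and at 1.72, 4.41, 3.10, 2.35 and 3.34 TPM with leptin. Crtac1 was at 10.45, 12.43, 9.02, 9.62 and 14.06 TPM with PBS and at 1.78, 2.45, 1.77, 2.85 and 2.92 TPM with leptin in the same mice. Neither gene overlapped between the groups, and every female PBS library held at least 707 counts of Glb1l2 and 144 counts of Crtac1. In males the log2 fold changes were -2.41 ± 0.22 (SE) for Glb1l2 and -2.59 ± 0.24 for Crtac1, beside -3.06 ± 0.26 and -2.18 ± 0.19 in females. For scale only, since the choice put all 5 genes among them, the share of tested genes past an adjusted p of 0.05 and a log2 change of 0.5 was 5.04% in the female contrast and 1.75% in the male one, and the share with no overlap of TPM between the groups was 6.56% and 2.19%.

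**Figure D1:**
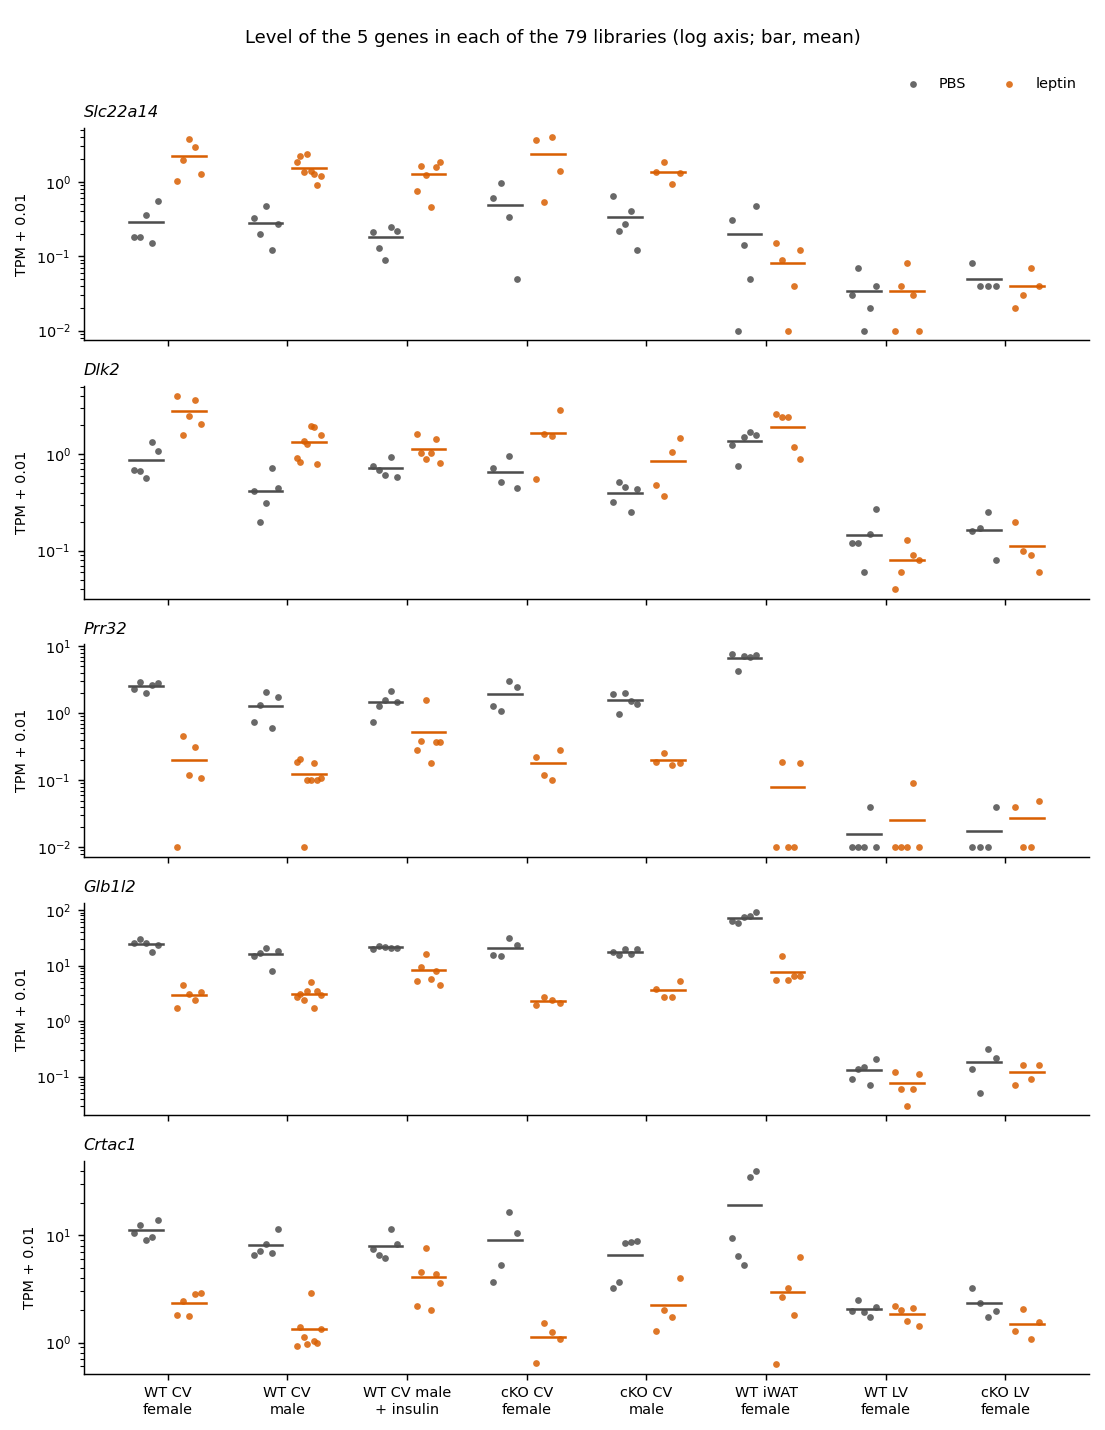
TPM plus 0.01, on a log axis, of each gene in each of the 79 libraries, by tissue, genotype, sex and insulin, with PBS in grey and leptin in orange and a bar at each group mean. Slc22a14 was higher with leptin in every CV set, Prr32 and Glb1l2 were lower in CV and iWAT, and all but Crtac1 were at 0.30 TPM or less in every LV library.

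The first contrast that did not choose the genes was leptin against PBS in CV of cKO mice, which asks whether the same genes move when marrow adipocytes cannot use ATGL. In a fit of 8 leptin and 9 PBS mice with sex as a covariate, Slc22a14 rose, Prr32, Glb1l2 and Crtac1 fell, and Dlk2 did not pass the test. That made 4 of 5 genes called, beside 2.01% of the genes tested (299 genes, 111 of them up). Called here and below means an adjusted p below 0.05 and a log2 change of at least 0.5 either way. Group means of Slc22a14 reached the filter of 0.4 TPM only in leptin CV (1.25 to 2.36 TPM) and female cKO PBS CV (0.475 TPM). Those of Prr32 reached it only in PBS CV, PBS iWAT and leptin CV with insulin. Both genes passed through groups where they were high, the libraries tested among them, so their tests are not independent of the filter.

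Slc22a14, the carrier, was at 0.59, 0.94, 0.33 and 0.04 TPM in female cKO PBS mice and at 3.60, 0.52, 3.94 and 1.37 TPM with leptin. The second leptin mouse, at 11 counts, lay inside the PBS range of 1 to 22 counts. In males the PBS values were 0.64, 0.21, 0.26, 0.39 and 0.11 TPM and the leptin values 1.35, 1.85, 0.93 and 1.31 TPM, with no overlap. Slc22a14 rose with a log2 fold change of 2.25 ± 0.44 (SE; adjusted p = 0.00746).

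Dlk2, the Dlk1 relative, was at 0.70, 0.51, 0.95 and 0.44 TPM in female cKO PBS mice and at 0.54, 1.61, 1.54 and 2.83 TPM with leptin. In males it was at 0.31, 0.51, 0.45, 0.24 and 0.43 TPM with PBS and at 0.47, 0.36, 1.04 and 1.47 TPM with leptin. The groups overlapped in both sexes, and the log2 fold change of 1.11 ± 0.36 (SE) had an adjusted p of 0.0990. Without the first female leptin mouse it was 1.27 ± 0.31 and was called (adjusted p = 0.0411). In males the 2 higher leptin values came from mice numbered in the 600s, a series with no male cKO PBS mouse, and the leptin mice of the other series lay within the PBS range, so that with the series as a covariate the male value was -0.09 ± 0.45.

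Prr32 was at 1.26, 1.08, 3.02 and 2.43 TPM in female cKO PBS mice and at 0.21, 0.11, 0.09 and 0.27 TPM with leptin. Male values were 1.91, 0.96, 1.98, 1.54 and 1.35 TPM with PBS and 0.18, 0.25, 0.16 and 0.17 TPM with leptin. No leptin mouse reached the lowest PBS mouse in either sex. Summed counts were 75 against 7 in females and 86 against 9 in males, for ratios of PBS to leptin counts, scaled to library totals, of 10.6 (95% interval 4.92 to 27.4) and 7.87 (3.96 to 17.8), which cover counting error only. Prr32 fell, with a log2 fold change of -3.10 ± 0.30 (SE; adjusted p = 2.79e-05). At these counts that SE, taken from the F statistic, is narrower than the counting error.

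Glb1l2, the beta-galactosidase relative, fell the most firmly, with a log2 fold change of -2.67 ± 0.20 (SE; adjusted p = 6.06e-07). Female cKO PBS mice were at 15.25, 14.60, 31.86 and 23.04 TPM and leptin mice at 1.95, 2.76, 2.40 and 2.11 TPM. Male PBS mice were at 17.5, 15.7, 19.8, 16.2 and 19.8 TPM and leptin mice at 3.73, 2.66, 2.68 and 5.23 TPM. The gap between the groups was wide in both sexes, and every library held at least 76 counts.

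Crtac1, the secreted matrix protein, was at 3.69, 5.25, 16.65 and 10.44 TPM in female cKO PBS mice and at 0.63, 1.52, 1.24 and 1.08 TPM with leptin. Male PBS values were 3.22, 3.63, 8.52, 8.64 and 8.85 TPM and male leptin values 1.26, 2.01, 1.72 and 3.98 TPM. The PBS levels were uneven by mouse series: the 4 PBS mice of the 100s lay between 3.22 and 5.25 TPM and the 5 others at 8.52 TPM or more. Crtac1 fell, with a log2 fold change of -2.07 ± 0.37 (SE; adjusted p = 0.00413), and with the series as a covariate the change was -1.95 ± 0.24 (adjusted p = 0.000368).

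Each sex fitted alone called fewer of the genes. In female cKO CV, 1 of the 5 was called, Glb1l2 (-3.10 ± 0.24, adjusted p = 0.00393), where 0.0269% of tested genes (4 genes) were called and 1723 had an unadjusted p below 0.05. Without the fourth leptin mouse, the adjusted p of Glb1l2 was 0.0568. Prr32, Glb1l2 and Crtac1 had no overlap between the 4 leptin and 4 PBS mice, as 5.02% of genes had. In male cKO CV, 2 of the 5 were called, Prr32 (-2.92 ± 0.39, adjusted p = 0.0164) and Glb1l2 (-2.29 ± 0.21, adjusted p = 0.00215), beside 0.188% of genes. The adjusted p of Prr32 was 0.0751 without the first leptin mouse and 0.0765 without the third. Slc22a14 in males had an adjusted p of 0.0543, which was 0.0471 without the first PBS mouse, and it joined Prr32 and Glb1l2 as the 3 genes with no overlap, beside 2.72% of genes.

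The difference of the leptin change between the sexes, tested as an interaction in cKO CV, was called for 0 of the 5 genes and for 0.0% of genes by edgeR. At an unadjusted p below 0.05 there were 529 genes, 1 of them a member (Glb1l2), and DESeq2 called 1 gene and no member. The male minus female difference of log2 changes was 0.81 ± 0.33 (SE) for Glb1l2 and 1.22 ± 0.69 for Crtac1, each with an adjusted p of 1.00. For Slc22a14, Dlk2 and Prr32 it was -0.23 ± 0.93, -0.26 ± 0.75 and 0.37 ± 0.67. Whether the cKO change differed from that of WT mice was not tested, since the WT change chose the genes.

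**Figure D2:**
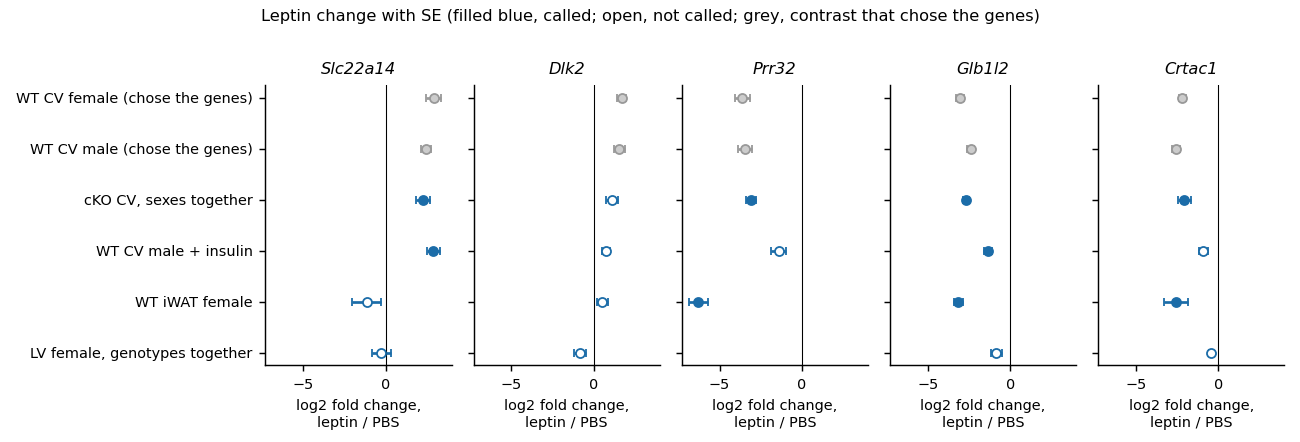
Log2 fold change of leptin against PBS with its SE for each gene in each contrast, grey where the contrast chose the genes, filled blue where called and open where not. Slc22a14 lay at 2.25 in cKO CV and 2.89 with insulin but at -1.16 and not called in iWAT, and Prr32 in LV is left out because its libraries held 0 to 2 counts. The SE of Prr32 can be smaller than the counting error at its few leptin counts.

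With an insulin pellet, Slc22a14 rose and Glb1l2 fell in male WT CV by edgeR, and DESeq2 also called Crtac1 as lower. By edgeR 2 of the 5 genes were called, beside 0.713% of genes tested (106 genes). Erythroid genes summed to 1087 to 4461 TPM with PBS and 5033 to 13870 TPM with leptin in these mice, with Hba-a1 and Alas2 called as higher. Cartilage genes (8) summed to 2488 to 3335 TPM with PBS and 1720 to 2233 TPM with leptin, with Col2a1 called as lower, and bone genes (5) to 2180 to 3114 and 1209 to 1956 TPM, with Bglap and Col1a1 called as lower. None of these 3 sums overlapped between the groups, and their part in the results was not tested. Slc22a14 was at 0.20, 0.12, 0.08, 0.24 and 0.21 TPM with PBS and insulin and at 0.75, 1.64, 1.23, 0.45, 1.59 and 1.82 TPM with leptin and insulin. All 6 leptin mice lay above all 5 PBS mice, and the gene rose with a log2 fold change of 2.89 ± 0.40 (SE; adjusted p = 0.0208).

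Glb1l2 was at 19.8, 22.8, 21.8, 20.6 and 21.2 TPM with PBS and insulin, a narrow band, and at 5.33, 9.63, 16.1, 5.75, 7.83 and 4.45 TPM with leptin and insulin. It fell, with a log2 fold change of -1.34 ± 0.25 (SE; adjusted p = 0.0333), and it and Slc22a14 were the 2 genes with no overlap between the groups, beside 2.95% of all genes. Without insulin the mean went from 15.96 ± 5.03 (SD, n = 5) to 3.11 ± 0.98 TPM (n = 8), and with insulin from 21.2 ± 1.1 (n = 5) to 8.18 ± 4.30 TPM (n = 6). Whether insulin altered the change was not tested for these genes, for the reasons given above.

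Prr32 and Crtac1 were not called with insulin by edgeR, and both calls depended on 1 mouse. Prr32 was at 0.74, 1.29, 1.55, 2.17 and 1.46 TPM with PBS and insulin and at 0.27, 0.37, 1.55, 0.17, 0.36 and 0.36 TPM with leptin and insulin, for a log2 fold change of -1.43 ± 0.46 (SE; adjusted p = 0.133). Crtac1 was at 7.44, 6.54, 6.10, 11.5 and 8.35 TPM and at 2.20, 4.51, 7.56, 2.00, 4.35 and 3.62 TPM, for -0.91 ± 0.26 (adjusted p = 0.107 by edgeR and 0.0241 by DESeq2). In both genes the third leptin mouse lay within the PBS group and the 5 others below it. Without that mouse Prr32 had a log2 fold change of -2.14 ± 0.34 (adjusted p = 0.0137) and Crtac1 of -1.16 ± 0.22 (adjusted p = 0.0225), 4 of the 5 genes were called, and the number of genes called went from 106 to 236.

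The same mouse held Glb1l2 at 16.1 TPM, nearest the PBS group, but Slc22a14 at 1.23 TPM, well above it. Its Lep, the leptin gene of adipocytes, was at 16.8 TPM, against 11.9 to 27.7 TPM in the PBS mice and 0.33 to 4.33 TPM in the 5 other leptin mice, and its adipocyte markers summed to 7153 TPM, against 4436 to 7241 and 3079 to 8552 TPM. This is an observation on 1 mouse, with no test. Dlk2 was at 0.57 to 0.93 TPM with PBS and insulin and 0.80 to 1.60 TPM with leptin and insulin, groups that overlapped, with a log2 fold change of 0.74 ± 0.23 (SE; adjusted p = 0.128).

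The calls with insulin were not firm. All 5 PBS mice are numbered in the 300s and 3 leptin mice in the 400s, and with the series as a covariate Slc22a14 was at 2.78 ± 0.46 (SE; adjusted p = 0.130) and Glb1l2 at -1.04 ± 0.27 (adjusted p = 0.255). Slc22a14 lost its call when PBS mouse 2, 3 or 5 or leptin mouse 5 was left out, with adjusted p of 0.0514 to 0.0769, and Glb1l2 when PBS mouse 1, 2, 3 or 5 or leptin mouse 1 or 5 was left out, with adjusted p of 0.0748 to 0.102.

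**Figure D3:**
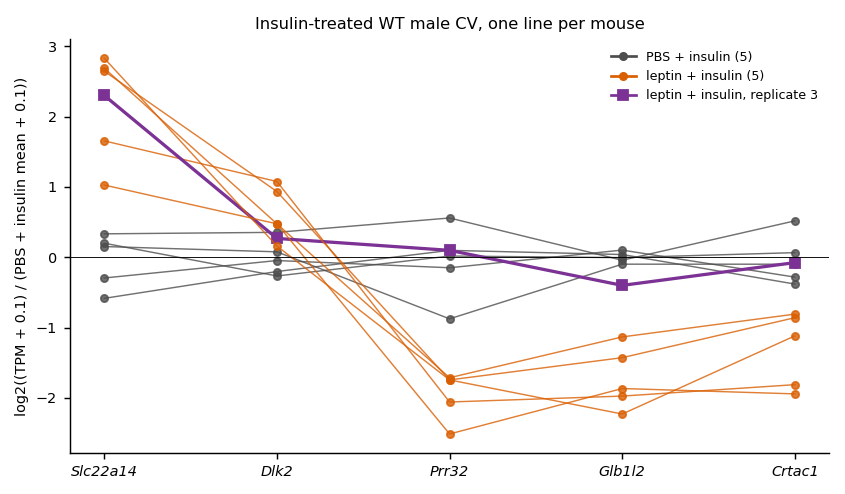
Log2 ratio of each gene's TPM plus 0.1 to the mean of the PBS and insulin mice plus 0.1, with 1 line per insulin-treated mouse. The third leptin mouse (purple squares) followed the other leptin mice for Slc22a14 (1.23 TPM) and the PBS mice for Prr32 (1.55 TPM) and Crtac1 (7.56 TPM).

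In iWAT, a depot of white adipocytes under the skin, Prr32, Glb1l2 and Crtac1 fell with leptin, and neither Slc22a14 nor Dlk2 was called. That is 3 of 5 genes, where 15.1% of tested genes were called (2248 genes). These were the same 10 females whose CV chose the genes, and the 5 PBS iWAT libraries were themselves part of the choice through their level above LV, so the contrast is not independent of it.

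Prr32 was at 7.65, 4.2, 7.10, 6.84 and 7.48 TPM in PBS iWAT, its highest level in any tissue, and at 0, 0.18, 0, 0 and 0.17 TPM with leptin. The 5 leptin libraries held 4 counts in all against 335 with PBS, a ratio of PBS to leptin counts, scaled to library totals, of 85.2 (95% interval 33.0 to 314, for counting error only and not the spread between mice). Prr32 fell with a fitted log2 fold change of -6.30 ± 0.56 (SE; adjusted p = 7.02e-05). This SE is taken from the F statistic, and at 4 leptin counts it is narrower than the counting error.

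Glb1l2 was at 63.3, 58.0, 76.3, 77.1 and 90.9 TPM in PBS iWAT and at 5.40, 14.9, 5.58, 6.58 and 6.51 TPM with leptin. It fell with a log2 fold change of -3.15 ± 0.28 (SE; adjusted p = 7.11e-05), and Prr32 and Glb1l2 were the 2 of 5 genes with no overlap, beside 18.7% of all genes. The mean in PBS iWAT was 73.1 ± 12.9 TPM (SD, n = 5), above the 24.8 ± 4.6 TPM of CV in the same mice.

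Crtac1 in iWAT separated by mouse series. In the 100s it was at 9.39, 6.41 and 5.23 TPM with PBS and 0.62 and 2.68 TPM with leptin, and in the 600s at 35.15 and 40.16 TPM with PBS and 3.24, 1.8 and 6.29 TPM with leptin. The PBS mice lay above the leptin mice within each series, although the largest leptin value exceeded the smallest PBS value overall. Crtac1 fell with a log2 fold change of -2.57 ± 0.70 (SE; adjusted p = 0.0224), and with the series as a covariate of -2.59 ± 0.44 (adjusted p = 0.00332). The adjusted p was 0.0572 without the fourth leptin mouse, 0.0541 without the fourth PBS mouse and 0.0529 without the fifth.

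Slc22a14 in iWAT was at 0.30, 0, 0.13, 0.04 and 0.46 TPM with PBS and at 0.14, 0.08, 0, 0.03 and 0.11 TPM with leptin, on 0 to 10 counts per library. No rise was detectable there at this depth, with a log2 fold change of -1.16 ± 0.88 (SE; adjusted p = 0.350). Dlk2 was at 1.22, 0.75, 1.5, 1.70 and 1.55 TPM with PBS and at 2.57, 2.43, 2.40, 1.18 and 0.87 TPM with leptin, for 0.52 ± 0.33 (adjusted p = 0.265). The 2 leptin mice of the 100s lay above all PBS mice, and of the 3 leptin mice of the 600s 1 lay above the PBS mice of its series and 2 below. A test of tissue against leptin was not made for these genes, because the CV arm chose them.

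In LV 4 of the 5 genes were near the limit of detection. In LV, the study's control site without marrow fat, Prr32 had 0 to 2 counts in each of 18 libraries, so no fold change is given. Slc22a14 had 0 to 5 counts and Dlk2 1 to 10 counts in the LV libraries. Glb1l2 was at 0.04 to 0.30 TPM with PBS and 0.02 to 0.15 TPM with leptin. Crtac1 alone kept a clear level, at 1.72 to 3.23 TPM with PBS and 1.08 to 2.17 TPM with leptin.

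Leptin against PBS in LV, with both genotypes in 1 fit of 9 against 9 females and with WT PBS libraries whose low level was part of the choice, called 0 of the 5 genes, beside 1.11% of all genes by edgeR, with 3204 genes at an unadjusted p below 0.05. Of the 5 genes, 3 had an unadjusted p below 0.05. DESeq2 also called 0 of them, with Crtac1 at an adjusted p of 0.0336 but a log2 change of -0.45, short of the fold threshold, and no adjusted p for the other 4. The log2 fold changes were -0.46 ± 0.14 (SE) for Crtac1 (adjusted p = 0.0666), -0.84 ± 0.33 for Glb1l2 (0.137), -0.82 ± 0.37 for Dlk2 (0.198) and -0.27 ± 0.58 for Slc22a14 (0.852), the adjusted p in parentheses. The last 3 are limited by their few counts.

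CV was compared with LV in the 4 female cKO mice given PBS, since the same comparison in WT mice was part of the choice. Each mouse gave both tissues, but the fit treated all libraries as separate, so the SE and adjusted p given here ignore the pairing. A fit with mouse as a block changed no call. Prr32 and Glb1l2 were higher in CV, at 1.08 to 3.02 against 0 to 0.03 TPM and 14.6 to 31.9 against 0.04 to 0.30 TPM. The log2 differences were 5.95 ± 0.72 (SE; adjusted p = 4.65e-05) and 5.75 ± 0.43 (adjusted p = 2.16e-06). For Prr32 the 4 LV libraries held 1 count in all against 75 in CV, a ratio of counts scaled to library totals of 121 with a 95% interval of 21.0 to 4838, again for counting error only.

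Slc22a14 and Dlk2 were called as higher in CV with less certainty, at log2 differences of 2.28 ± 0.77 (SE; adjusted p = 0.0218) and 1.08 ± 0.39 (adjusted p = 0.0303). Leaving out mouse 1, 2 or 3 gave Slc22a14 an adjusted p of 0.0501, 0.141 or 0.0598, and leaving out mouse 1, 2 or 4 gave Dlk2 one of 0.136, 0.0535 or 0.0600. DESeq2, with all mice, called Slc22a14 but not Dlk2 (adjusted p = 0.0619), and so 3 of the 5 genes. Crtac1 was not called (0.57 ± 0.41, adjusted p = 0.229), and leaving out mouse 1 gave 1.02 ± 0.38 with an adjusted p of 0.0411. These 4 of 5 genes called stand beside 65.4% of all genes, and 4 of 5 with no overlap in TPM beside 84.3%, so neither count sets the genes apart. On the TPM scale the median gene was itself 1.19 log2 units higher in CV than in LV, and Crtac1, at 3.69 to 16.65 against 1.72 to 3.23 TPM, had no overlap on that scale.

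Across all 16 groups, the order of levels differed by gene. Glb1l2 was highest in PBS iWAT (58.0 to 90.9 TPM), then in the PBS groups of CV (7.92 to 31.9 TPM). These PBS CV groups overlapped each other except male cKO (up to 19.82 TPM) and insulin-treated WT (from 19.83 TPM). Leptin iWAT and CV came next (1.68 to 16.1 TPM), and LV was lowest. Some insulin-treated leptin mice and leptin iWAT mouse 2 (14.91 TPM) reached into the range of PBS CV. Prr32 followed the same order, except that its leptin iWAT (0 to 0.18 TPM), leptin CV without insulin (0 to 0.45 TPM) and LV (0 to 0.08 TPM) groups overlapped. Crtac1 overlapped between PBS iWAT (5.23 to 40.2 TPM) and PBS CV (3.22 to 16.65 TPM), and its leptin CV range without insulin (0.63 to 3.98 TPM) took in that of LV (1.08 to 3.23 TPM).

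The genes that were higher with leptin had other orders. Slc22a14 was highest in leptin CV (0.45 to 3.94 TPM), where the groups with and without insulin and of both genotypes overlapped, then in PBS CV (0.04 to 0.94 TPM), with iWAT (0 to 0.46 TPM) and LV (0 to 0.07 TPM) below or overlapping it. Dlk2 was highest in leptin CV of WT females (1.57 to 4.02 TPM), which overlapped leptin CV of cKO females (0.54 to 2.83 TPM) and leptin iWAT (0.87 to 2.57 TPM), and was lowest in LV (0.03 to 0.26 TPM).

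Markers of other cells differed between some of these groups. In WT CV erythroid genes summed to 1910 to 5315 TPM with PBS and 6676 to 17524 TPM with leptin in males, without overlap, and to 1993 to 5898 and 5060 to 21526 TPM in females, and 3 of the 4 were called as higher in each sex. Muscle genes in male WT CV summed to 42502 to 51387 TPM with PBS and 24067 to 39617 TPM with leptin, also without overlap, with 1 of 8 called as lower. The 5 bone genes in female WT CV summed to 2348 to 6303 TPM with PBS and 5148 to 15811 TPM with leptin, with 1 called as higher. The 4 adipocyte markers in female WT CV summed to 5831 to 7668 TPM with PBS and 3610 to 6223 TPM with leptin. In male WT CV they summed to 3915 to 6357 and 3514 to 6244 TPM, and 2 of the 4 were called as lower in each sex. In cKO CV the 4 adipocyte markers summed to 4436 to 7047 TPM with PBS and 3432 to 5161 TPM with leptin in females, and 4180 to 6412 and 4009 to 4946 TPM in males, and Adipoq and Plin1 of the 4 fell. Erythroid genes summed to 963 to 5521 TPM with PBS and 2047 to 18532 TPM with leptin over both sexes, with Hbb-bs called as higher. In iWAT the adipocyte markers summed to 37235 to 53873 TPM with PBS and 12618 to 29919 TPM with leptin, where Plin1 and Fabp4 fell. Erythroid genes in iWAT summed to 2343 to 3197 and 257 to 1328 TPM, without overlap, with 3 of the 4 called as lower. The 8 cartilage genes summed to 2291 to 3933 TPM with PBS and 1331 to 2419 TPM with leptin in female cKO CV. In male cKO CV the sums were 1713 to 3361 and 1510 to 2899 TPM. In female WT CV they were 2408 to 2723 and 1328 to 2563 TPM. In male WT CV they were 2054 to 2832 and 1465 to 2598 TPM. None of the 8 was called in these groups, and in pooled cKO CV 4 had an unadjusted p below 0.05 by edgeR. The part of these shifts in the changes of the 5 genes was not tested. Spermatid genes, looked at because Slc22a14 is known from sperm cells, summed to 48.1 TPM in leptin and insulin mouse 2 and 22.2 TPM in male WT leptin mouse 1, which held Slc22a14 at 1.64 and 1.81 TPM, and to 11.5 TPM in PBS and insulin mouse 2, which held it at 0.12 TPM. In female CV the spermatid genes summed to 0.26 TPM at most, and Slc22a14 reached 3.94 TPM there. Any part of sperm cell RNA in the level of Slc22a14 was not tested.

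A list of 12 genes of adipocyte identity gives a scale for the falls. In cKO CV, 4 of the 12 fell and none rose, with a median log2 fold change of -0.42 beside 0.0021 over all genes. The 4 falls, of the lipid droplet coat protein Plin1 (-1.70 ± 0.30 SE), the hormone-sensitive lipase gene Lipe (-1.05 ± 0.22), the adipokine Adipoq (-1.17 ± 0.21) and Retn (-1.04 ± 0.19), stand beside -2.07 to -3.10 for Crtac1, Glb1l2 and Prr32, a comparison of values and not a test. In iWAT 6 of the 12 fell and 1, the complement factor gene Cfd, rose (1.42 ± 0.21), with a median of -0.58 beside 0.07 over all genes. With insulin 0 of the 12 were called by edgeR, 6 had an unadjusted p below 0.05 and DESeq2 called 3, and the median was -0.44 beside 0.01. LV had 1 called, Retn (-1.68 ± 0.46).

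**Figure D4:**
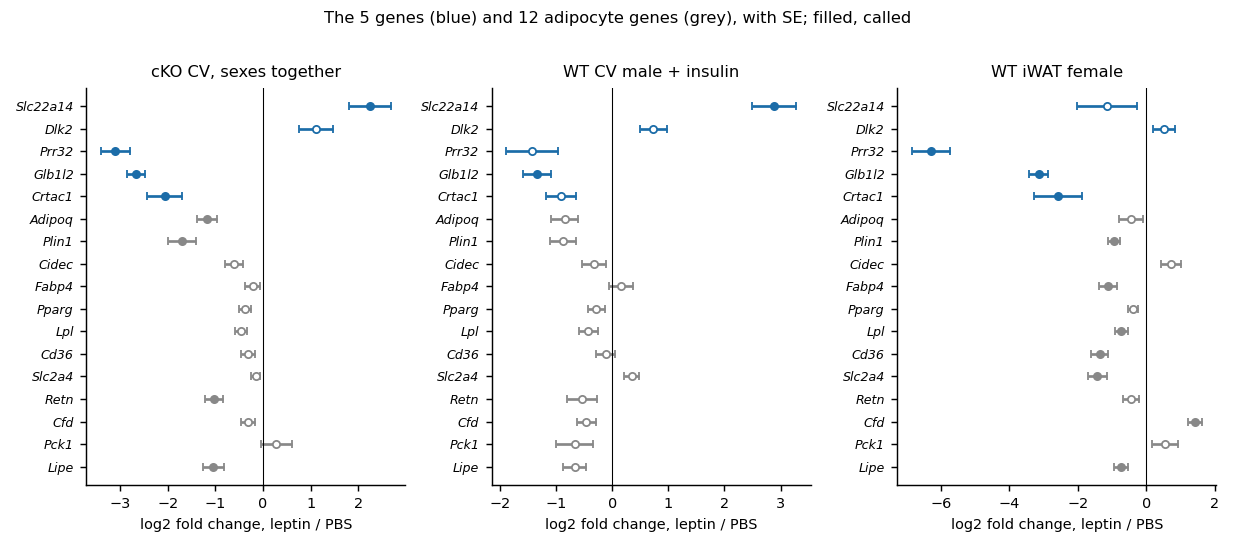
Log2 fold change of leptin against PBS with its SE for the 5 genes (blue) and 12 adipocyte identity genes (grey) in cKO CV, insulin-treated WT CV and iWAT, filled where called. Prr32, Glb1l2 and Crtac1 lay at -3.10, -2.67 and -2.07 in cKO CV, and the 12 adipocyte genes between -1.70 and 0.28.

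Relatives of the 5 genes are counted beside the 2.01%, 0.713% and 15.1% of all genes called in cKO CV, with insulin and in iWAT. Of 26 Slc22 genes listed, 10 were tested, and Slc22a14 was the 1 called in cKO CV and in insulin-treated CV. In iWAT the low-affinity cation carriers Slc22a2 (-2.87 ± 0.61 SE) and Slc22a3 (-2.07 ± 0.26) and the iron-related Slc22a17 (-0.52 ± 0.13) fell and the cation carrier gene Slc22a4 rose (1.14 ± 0.30), so 4 of the 10 were called there. Family medians were -0.16 in cKO CV, -0.04 with insulin and -0.11 in iWAT.

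Glb1l2 was the 1 called by edgeR among the 3 tested beta-galactosidase genes in cKO CV, insulin-treated CV and iWAT, and in iWAT DESeq2 called 2 of the 3. Glb1, the lysosomal enzyme itself, had log2 fold changes of 0.40 ± 0.19 (SE), -0.19 ± 0.08 and 0.44 ± 0.19 in these contrasts, and Glb1l had -0.14 ± 0.07, -0.07 ± 0.08 and -0.47 ± 0.10, the last with an adjusted p of 0.00647 but short of the fold threshold. In the same 3 contrasts Glb1l2 fell, with -2.67, -1.34 and -3.15.

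Of 28 Notch pathway genes, 25 were tested, and in cKO CV the target genes Heyl (-1.15 ± 0.17 SE, adjusted p = 0.00112) and Hes1 (-0.68 ± 0.12, adjusted p = 0.00336) fell and none rose. With insulin 0 of the 25 were called by edgeR, 10 had an unadjusted p below 0.05 and DESeq2 called 1, with Hes1 at -0.47 ± 0.08 (adjusted p = 0.0302), short of the fold threshold, and Heyl at -0.59 ± 0.15 (adjusted p = 0.0717). In iWAT the receptor gene Notch4 fell (-0.74 ± 0.20). Dlk1, the close relative of Dlk2, had -0.25 ± 0.41 in iWAT and 0.38 ± 0.22 in cKO CV (adjusted p = 0.362). Pathway medians were -0.06, -0.06 and -0.03 in cKO CV, with insulin and in iWAT.

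Of the 9 genes of the Nogo receptor list, whose receptor Crtac1 is known to block, 8 were tested and 0 were called in cKO CV or with insulin, by edgeR or DESeq2, with 4 and 1 at an unadjusted p below 0.05 by edgeR. The Nogo ligand gene Rtn4 had -0.27 ± 0.10 (SE) and its receptor gene Rtn4r -0.62 ± 0.19 (adjusted p = 0.0781) in cKO CV. In iWAT the receptor homologues Rtn4rl1 (-1.52 ± 0.17) and Rtn4rl2 (-1.11 ± 0.29) fell and the co-receptor gene Tnfrsf19 rose (1.11 ± 0.28), so 3 of the 8 were called. List medians were -0.24, -0.17 and 0.34.

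Likeness of pattern was described over the 28 CV libraries of cKO and insulin-treated mice, by Pearson correlation of log2(TPM + 0.1) among the 13552 genes whose mean over these libraries reached 1 TPM. The points share the split into PBS and leptin, and library depth and tissue makeup are shared too, so no test is given. Genes named by this correlation were picked on these same libraries. Their leptin changes in cKO CV and with insulin are therefore not independent of the pick and are given as description. Prr32, Glb1l2 and Crtac1 tracked each other, with r of 0.92 for Prr32 and Glb1l2, 0.91 for Glb1l2 and Crtac1 and 0.85 for Prr32 and Crtac1. Slc22a14 ran against them, at -0.69 to -0.78, and its r with Dlk2 was 0.36.

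Glb1l2 was most like Lep (r = 0.98), the thyrotropin receptor gene Tshr (0.96) and the butyrylcholinesterase gene Bche (0.94), and least like the translation factor gene Eif3g (-0.80). Lep fell in cKO CV (-6.66 ± 0.46 SE) and in iWAT (-7.54 ± 0.98). Prr32 was most like Glb1l2 itself, the monoglyceride lipase gene Mgll (0.92) and Lep (0.91), and least like Cish (-0.74), a feedback inhibitor of cytokine signalling that rose in cKO CV (1.42 ± 0.18). Crtac1 was most like 3 adipocyte genes, Lipe (0.94), the glucose transporter regulator Trarg1 (0.93) and Plin1 (0.93), and least like Serpina3g (-0.80).

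Slc22a14 was most like Madcam1 (0.91), a vascular adhesion molecule, Cyp4b1 (0.90), a cytochrome P450, and Lipg (0.85), the endothelial lipase. Madcam1 rose in cKO CV (1.90 ± 0.33 SE) and with insulin (1.81 ± 0.27) and, like Slc22a14, was not called in iWAT (-0.78 ± 0.56). Its lowest correlation was with the prostaglandin receptor gene Ptger3 (-0.84), which fell in cKO CV (-0.91 ± 0.16), with insulin (-0.76 ± 0.15) and in iWAT (-2.02 ± 0.28). For Dlk2 the closest genes were more distant, with r of 0.72 for Gpr176, 0.70 for Angpt4 and 0.70 for Vipr2, and -0.71 for Msra at the other end.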

How the data were processed

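RNA was enriched by oligo dT and sequenced as 100 bp paired reads on DNBSEQ. Reads were filtered with SOAPnuke and aligned by the authors to GRCm38.p6 with HISAT and Bowtie2. The submitters' processing notes also name GRCm39, and the counting tool is not given in the sources used here. The authors deposited estimated counts per gene without normalization, and TPM values, scaled to the same total in each library. Of the counts, 51 values in 6 genes were not whole and were rounded. Features with a numeric gene ID numbered 39063, and all others were at 0. Conditions came from the sample labels.

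For each contrast edgeR 4.0.16 (R 4.3.3) was run on TMM-scaled libraries with its quasi-likelihood F test, checked on simulated data, and p-values were adjusted by Benjamini-Hochberg over all 14873 genes. SE is the log2 fold change divided by the square root of the F statistic, and is not a fitted spread between mice. For Prr32, at a few leptin counts, it can be smaller than the counting error. Alternatives were DESeq2 1.42.0, RLE size factors, other filters, 1 fit of all CV libraries, mouse series, replicate numbers as a block and leaving out each mouse. Correlations, levels and motif matches were computed in Python 3.11.15.

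The members, lists and tests were chosen with earlier results of these data known. Named genes were the 5 members, for each the 3 most and 1 least correlated gene, and called genes of the lists of relatives. Leptin and PBS samples with the same replicate number are different mice, but CV and LV samples with the same number are the same mouse, and their deviations from group means correlated in all 4 pairs (r = 0.163 to 0.265). No 2 libraries of a group were copies. Total counts limit genes at a few counts, where a library at 0 allows up to 3 counts.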

Additional observations from a re-analysis of the deposited data

Results flagged for a closer look

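A sample was marked where its gap to the nearest other sample of its group, as a share of the group's range, exceeded Dixon's 95% critical value. Of 80 group and gene pairs, 8 were marked, and chance marks about 1 in 20. In insulin-treated CV, Prr32 in leptin mouse 3 was at 1.55 TPM, above the next leptin mouse at 0.37 TPM. In iWAT, Glb1l2 in leptin mouse 2 was at 14.91 TPM, above the next at 6.58 TPM, and Prr32 in PBS mouse 2 was at 4.2 TPM, below the next at 6.84 TPM. Crtac1 in male WT CV leptin mouse 5 was at 2.89 TPM, above the next at 1.38 TPM. The other 4 lay in LV at 5 counts or fewer, with Slc22a14 in cKO PBS mouse 1 at 0.07 TPM, and Prr32 at 0.03 TPM in WT PBS mouse 4, 0.08 TPM in WT leptin mouse 4 and 0.03 TPM in cKO PBS mouse 4.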

How the results depend on the processing

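Pooled cKO CV had 3 to 5 of the 5 genes called over all settings, iWAT 3 and LV 0 under every setting that kept all mice. The contrasts of 1 sex or of insulin-treated mice moved more. In female cKO CV, edgeR called 4 genes and 1 member, DESeq2 219 and 3, and 1 fit of all CV libraries 507 and 4. In male cKO CV, edgeR called 28 genes and 2 members, DESeq2 214 and 4, the fit of all CV libraries 44 genes, and mouse series as a covariate 13 and 1. With insulin, edgeR called 106 genes and 2 members, DESeq2 316 and 3 (adding Crtac1), the fit of all CV libraries 57 and 2, the series covariate 1 and 0, and a filter of 1 TPM left 1 member called because it removed Slc22a14 and Dlk2. That filter left 2 members called for CV against LV, for the same reason. DESeq2 called 3 there, without Dlk2. For sex by leptin, DESeq2 and the fit of all CV libraries called 1 gene each, against 0. With the series covariate, Dlk2 in male cKO was at -0.092 and Slc22a14 for sex by leptin at 0.43, reversals whose cause was not tested.

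Leptin and PBS mice with the same replicate number share only that number, and correlations of their deviations had both signs. With a replicate block, female cKO CV had 13 genes and 2 members called, male cKO CV 14 and 1, and insulin 1 and 0, while in pooled cKO CV Slc22a14 was at 2.12 (adjusted p = 0.0642). For CV against LV, where the numbers mark the same mouse, the block changed no call.

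Leaving out 1 mouse at a time gave 0 to 40 genes and 0 to 1 members called in female cKO CV, 5 to 65 and 1 to 3 in male cKO CV, 0 to 236 and 0 to 4 with insulin, 1744 to 2845 and 2 to 3 in iWAT, 0.578 to 1.24% of genes in LV (the lowest without WT PBS mouse 4), 2 to 3 members for CV against LV, and 0 to 1 genes for sex by leptin. Crtac1 for CV against LV ranged from -0.0069 (without mouse 3) to 1.02. For sex by leptin, Slc22a14 ranged from -0.85 to 0.19 and Dlk2 from -0.66 to 0.26, also crossing 0 for Slc22a14 at 0.15 and 0.085. Depth limits Prr32 with leptin, Slc22a14 outside leptin CV, and all but Crtac1 in LV.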
